A study of Mus musculus with 18 samples.

Results

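Medium spiny neurons are the projection neurons of the striatum, and 34 genes that mark them were followed in RNA from the lateral septum (LS), a region that lies across the lateral ventricle from the striatum. Members were chosen by gene symbol, and each was measured by a probeset (a set of array probes) whose platform annotation names that gene alone. Of the 34 members, 33 had 1 such probeset each, among 19938 genes with a probeset of their own. The expression of Ankrd63 was not analysed here. The arrays were Affymetrix Mouse Gene 1.0 ST, 1 per mouse, from 18 female outbred hsd:ICR mice about 70 days old, all of them never pregnant before the experiment. The 6 lactating maternal mice nursed litters of 11 until dissection on postpartum Day 7, the 6 pups removed mice gave birth and lost their pups on Day 2 with dissection also on Day 7, and the 6 virgin mice were age-matched and never mated. By the study's methods, the pups removed mice and the virgin mice used were in diestrus, and LS was punched bilaterally from frozen sections and kept as 1 sample per mouse. The values deposited by the authors are log2 signals, and the median of an array lay between 7.61 and 7.7.

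Medium spiny neurons use GABA as their transmitter and receive dense dopamine input. In those of the direct pathway, D1 receptors act through the G protein Golf to raise cyclic AMP (cAMP), and in those of the indirect pathway D2 receptors lower it while adenosine receptors raise it through Golf. Protein kinase A then phosphorylates DARPP-32, the product of Ppp1r1b, which becomes an inhibitor of protein phosphatase-1. The members hold much of this cascade, along with transcription factors of the lineage, and several of them are also expressed by neurons outside the striatum.

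Genes of this cell type had lower signals in lactating mothers than in virgins. Of the 33 measured members, 32 had a lower mean in maternal mice, where 43.5% of all 35557 probesets did. The median log2 difference of the members was -0.248 (maternal minus virgin), against 0.012 over all probesets. In limma, 7 members passed an adjusted p of 0.25 over all probesets, the threshold of the study, and all 7 fell in maternal LS: Bcl11b, Gprin3, Pde1b, Adcy5, Ngef, Slc35d3 and Foxp1. Of all probesets, 0.813% were called lower in this comparison. The other 26 members did not pass, and an unadjusted p under 0.05 with a lower maternal mean was found for 26 of the 33 members and for 4.62% of all probesets. The closest members on each side of the threshold were Foxp1 (limma adjusted p = 0.238) and Pde10a (limma adjusted p = 0.251). At an adjusted p of 0.05, 0 probesets were called in limma, with 3706 at an unadjusted p under 0.05. In a bulk sample, fewer cells of a type and less RNA per cell cannot be told apart.

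**Figure D1:**
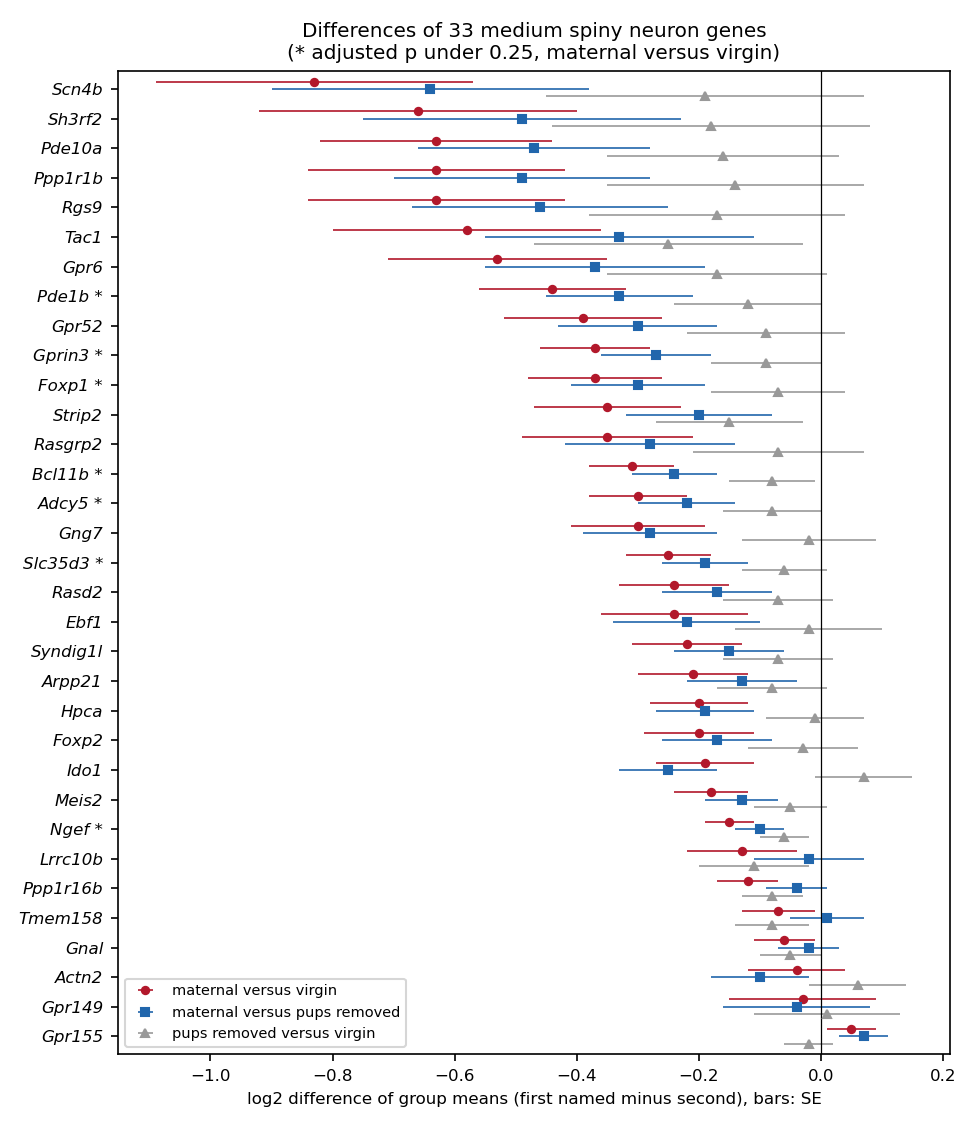
Log2 differences of 33 members (x axis, log2 units; bars, SE from limma) for maternal versus virgin (circles), maternal versus pups removed (squares) and pups removed versus virgin (triangles), ordered by the first of these. The maternal versus virgin points run from -0.83 for Scn4b to 0.05 for Gpr155, and asterisks mark the 7 members with an adjusted p under 0.25.

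The promoters of 3 members are shown because a cAMP response element, the letters TGACGTCA, is the site at which CREB acts at the end of the dopamine to cAMP cascade. Slc35d3 passed the test in maternal versus virgin LS, and Tac1 and Gpr6 were among the members with large differences. They were chosen after their values were seen. The sequences are from RefSeq on GRCm38.p6, 300 bases each, from 250 bases before to 50 bases after the transcription start. Capitals mark the element or its core TGACG, which reads CGTCA on the opposite strand. Positions are counted from the start site. Slc35d3 (chr10:19851410-19851709, minus strand) has 1 core at -149, Tac1 (chr6:7554811-7555110, plus strand) has 2 at -197 and -43, and Gpr6 (chr10:41072241-41072540, minus strand) has the full element, whose overlapping cores begin at -78 and -75.
Slc35d3: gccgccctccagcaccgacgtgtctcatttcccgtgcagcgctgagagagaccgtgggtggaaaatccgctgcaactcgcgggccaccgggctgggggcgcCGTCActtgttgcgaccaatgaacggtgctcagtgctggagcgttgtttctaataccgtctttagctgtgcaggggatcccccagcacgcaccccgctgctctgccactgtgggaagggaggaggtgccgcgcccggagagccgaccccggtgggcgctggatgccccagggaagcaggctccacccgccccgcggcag
Tac1: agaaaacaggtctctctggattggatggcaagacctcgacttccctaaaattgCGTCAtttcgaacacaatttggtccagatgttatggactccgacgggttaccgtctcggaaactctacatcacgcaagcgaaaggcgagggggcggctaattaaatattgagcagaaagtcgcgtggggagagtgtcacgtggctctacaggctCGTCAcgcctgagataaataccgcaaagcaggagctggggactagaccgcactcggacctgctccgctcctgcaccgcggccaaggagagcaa
Gpr6: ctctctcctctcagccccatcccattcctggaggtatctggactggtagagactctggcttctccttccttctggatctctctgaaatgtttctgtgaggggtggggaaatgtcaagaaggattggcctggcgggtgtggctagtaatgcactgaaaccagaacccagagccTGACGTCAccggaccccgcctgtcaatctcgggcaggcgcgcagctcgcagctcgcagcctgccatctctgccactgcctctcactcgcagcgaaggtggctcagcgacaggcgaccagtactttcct
Promoter entries were used for 25 of the 34 members (44 entries), and the motifs were searched on both strands. The full element was in 1 of the 44 (2.27%) and in 1.79% of the 32851 promoters of this length that were searched. The core, which lies within the full element, was in 11 of 44 (25.0%) and in 20.8% of all promoters. The letters TGACAG, bound by factors of the MEIS family, were in 11 of 44 (25.0%) and in 19.2%. The forkhead letters TGTTTAC were in 2 of 44 (4.55%) and in 3.65%. The TATA letters TATAAA were in 5 of 44 (11.4%) and in 13.6%. A match describes the letters only, and the shares of the members lay close to those of all promoters.

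All 8 measured members of the dopamine to cAMP cascade had a lower mean in maternal than in virgin LS, with a median difference of -0.37, and 2 of them passed. Pde1b, a calcium-dependent phosphodiesterase that breaks down cyclic nucleotides, had signals of 10.68, 10.26, 10.61, 10.16, 10.40 and 10.44 in maternal mice, against 10.70, 10.91, 10.98, 10.92, 11.03 and 10.68 in virgin mice. The groups touched at 10.68, and the other maternal mice lay below every virgin mouse. Pde1b fell by 0.44 (SE 0.12, limma adjusted p = 0.19). Adcy5, the main adenylyl cyclase of these neurons, had signals of 10.74, 10.48, 10.69, 10.38, 10.54 and 10.61 in maternal mice, against 10.82, 10.83, 10.97, 10.91, 11.00 and 10.72 in virgin mice. Only maternal replicate 1 lay above the lowest virgin mouse. Adcy5 fell by 0.30 (SE 0.08, limma adjusted p = 0.212), which is 0.811 times the virgin level.

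The other members of the cascade did not pass. Ppp1r1b had signals of 10.49, 9.93, 10.36, 9.49, 9.88 and 10.19 in maternal mice, against 10.46, 10.79, 10.78, 10.74, 10.85 and 10.53 in virgin mice. Each maternal mouse lay under the virgin mean, only replicate 1 overlapped the virgin range, and replicate 4 was the lowest. The difference was -0.63 (SE 0.21, limma adjusted p = 0.282). Pde10a, the dual-specificity phosphodiesterase abundant in striatum, averaged 10.39 ± 0.34 in maternal mice, against 11.02 ± 0.19 in virgin mice (SD, n = 6 each), a difference of -0.63 (limma adjusted p = 0.251). Rgs9, which speeds the shut-off of G proteins, averaged 9.57 ± 0.35 in maternal mice, against 10.20 ± 0.20 in virgin mice (SD, n = 6 each; -0.63, limma adjusted p = 0.286). Both genes had all 6 maternal mice under the virgin mean. Gng7, the gamma subunit that partners Golf, differed by -0.30 (limma adjusted p = 0.36), and Arpp21, a substrate of protein kinase A, by -0.21 (limma adjusted p = 0.403). Gnal, the alpha subunit of Golf, was nearly level at 11.46 ± 0.07 in maternal mice, against 11.53 ± 0.09 in virgin mice (SD, n = 6 each; -0.06, limma adjusted p = 0.698). Of 28 measured genes of this pathway outside the members, 20 were lower and 8 higher in maternal LS, with a median of -0.06, and 1 passed. That gene, Ppp1ca, a catalytic subunit of protein phosphatase-1, fell by 0.22 (SE 0.06, limma adjusted p = 0.19).

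Among receptors and their partners, 4 of 5 members had a lower maternal mean. Gprin3, a partner of G proteins in neurite growth, had signals of 9.07, 8.98, 9.09, 8.68, 8.80 and 8.94 in maternal mice, against 9.18, 9.28, 9.32, 9.36, 9.34 and 9.27 in virgin mice. The groups did not overlap. Gprin3 fell by 0.37 (SE 0.09, limma adjusted p = 0.168). Gpr6 and Gpr52, orphan receptors of indirect pathway neurons that couple to cAMP production, averaged 9.78 ± 0.30 and 10.14 ± 0.20 in maternal mice, against 10.31 ± 0.15 and 10.53 ± 0.17 in virgin mice (SD, n = 6 each). Gpr6 differed by -0.53 (SE 0.18, limma adjusted p = 0.293). Gpr52 differed by -0.39 (SE 0.13, limma adjusted p = 0.296), and every maternal mouse lay under the virgin mean for both. Gpr149, another orphan receptor, differed by -0.03 (limma adjusted p = 0.96). Gpr155, a membrane protein with a receptor-like domain, was the member with a higher maternal mean, at 10.21 ± 0.04 in maternal mice, against 10.16 ± 0.08 in virgin mice (SD, n = 6 each; 0.05, limma adjusted p = 0.708).

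Tac1, the precursor of substance P in direct pathway neurons, had signals of 9.12, 9.47, 9.15, 8.35, 8.94 and 9.33 in maternal mice, against 9.44, 9.59, 9.67, 9.93, 9.44 and 9.75 in virgin mice. Maternal replicate 2 overlapped the virgin range, and the other maternal mice did not. The difference was -0.58 (SE 0.22, limma adjusted p = 0.37). Scn4b, the beta4 subunit of sodium channels, had the lowest difference of the 33 members. Its signals were 8.64, 7.78, 8.57, 7.67, 8.32 and 8.12 in maternal mice, against 8.65, 9.12, 9.26, 9.20, 9.26 and 8.59 in virgin mice. The lowest virgin mice, replicates 1 and 6, lay on either side of the highest maternal mouse, so that the groups overlapped. The difference of -0.83 (SE 0.26) is 0.563 times the virgin level and did not pass (limma adjusted p = 0.259). Hpca, the calcium sensor hippocalcin, averaged 11.87 ± 0.12 in maternal mice, against 12.06 ± 0.07 in virgin mice (SD, n = 6 each), and its groups did not overlap although it did not pass (-0.20, limma adjusted p = 0.395). Syndig1l, a relative of a synapse-inducing membrane protein, differed by -0.22 (limma adjusted p = 0.394), and Actn2, an actin cross-linker found at dendritic spines, by -0.04 (limma adjusted p = 0.902).

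All 5 transcription factors had a lower maternal mean, with a median difference of -0.24, and 2 passed. Bcl11b, also called Ctip2 and required for differentiation of medium spiny neurons in mouse, had signals of 9.33, 9.35, 9.30, 9.09, 9.32 and 9.34 in maternal mice, against 9.56, 9.61, 9.57, 9.50, 9.71 and 9.66 in virgin mice. The groups did not overlap, and 5 of the maternal mice lay within 0.05 of each other. Bcl11b fell by 0.31 (SE 0.07, limma adjusted p = 0.128), the smallest adjusted p among the members. Foxp1, a forkhead factor of striatal projection neurons, had signals of 9.90, 9.86, 9.95, 9.45, 9.75 and 9.87 in maternal mice, against 10.09, 10.10, 10.23, 10.20, 10.28 and 10.09 in virgin mice. These groups did not overlap either, and Foxp1 fell by 0.37 (SE 0.11, limma adjusted p = 0.238). Its relative Foxp2 differed by -0.20 (limma adjusted p = 0.433). Meis2, a homeodomain factor of the ventral forebrain, averaged 11.64 ± 0.09 in maternal mice, against 11.82 ± 0.04 in virgin mice (SD, n = 6 each), without overlap but short of the threshold in this fit (-0.18, limma adjusted p = 0.269). The study's own fit called more targets at its threshold, and its list of the most significant genes includes Meis2, along with Bcl11b and Gprin3. Ebf1, a factor of direct pathway neurons, differed by -0.24 (SE 0.12, limma adjusted p = 0.52).

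The 4 regulators of small GTPases and phosphatases all had a lower maternal mean. Ngef, an exchange factor for small GTPases also called ephexin-1, had signals of 10.13, 10.09, 10.15, 10.09, 10.05 and 10.12 in maternal mice, against 10.20, 10.26, 10.21, 10.27, 10.38 and 10.23 in virgin mice. The gap between the groups was small, as was the spread. Ngef fell by 0.15 (SE 0.04, limma adjusted p = 0.226). Rasd2, the small GTPase Rhes, differed by -0.24 (limma adjusted p = 0.37), and Rasgrp2, an exchange factor for Rap1, by -0.35 (limma adjusted p = 0.387). Ppp1r16b, a targeting subunit of protein phosphatase-1, differed by -0.12 (limma adjusted p = 0.368).

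Of the remaining 6 measured members, all had a lower maternal mean and 1 passed. Slc35d3, a member of the nucleotide sugar transporter family that in mouse acts in D1 receptor trafficking, had signals of 8.33, 8.13, 8.37, 8.18, 8.18 and 8.24 in maternal mice, against 8.53, 8.62, 8.51, 8.47, 8.40 and 8.39 in virgin mice. The highest maternal mouse was 0.02 below the lowest virgin mouse, and Slc35d3 fell by 0.25 (SE 0.07, limma adjusted p = 0.228). Sh3rf2, which encodes a RING and SH3 domain protein, differed by -0.66 (limma adjusted p = 0.384), and Strip2, a partner of striatins, by -0.35 (limma adjusted p = 0.315). Ido1, an enzyme that breaks down tryptophan, was the member with the lowest signal, the only 1 with a mean under the array-wide median of 7.65, and averaged 6.48 ± 0.09 in maternal mice, against 6.67 ± 0.16 in virgin mice (SD, n = 6 each; -0.19, limma adjusted p = 0.388). Lrrc10b, a leucine-rich repeat protein, differed by -0.13 (limma adjusted p = 0.646), and Tmem158, a membrane protein, by -0.07 (limma adjusted p = 0.668). Over all 33 members, 7 had maternal signals that were all below the virgin range (Bcl11b, Foxp1, Slc35d3, Ngef, Hpca, Gprin3 and Meis2), as did 0.551% of all probesets.

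**Figure D2:**
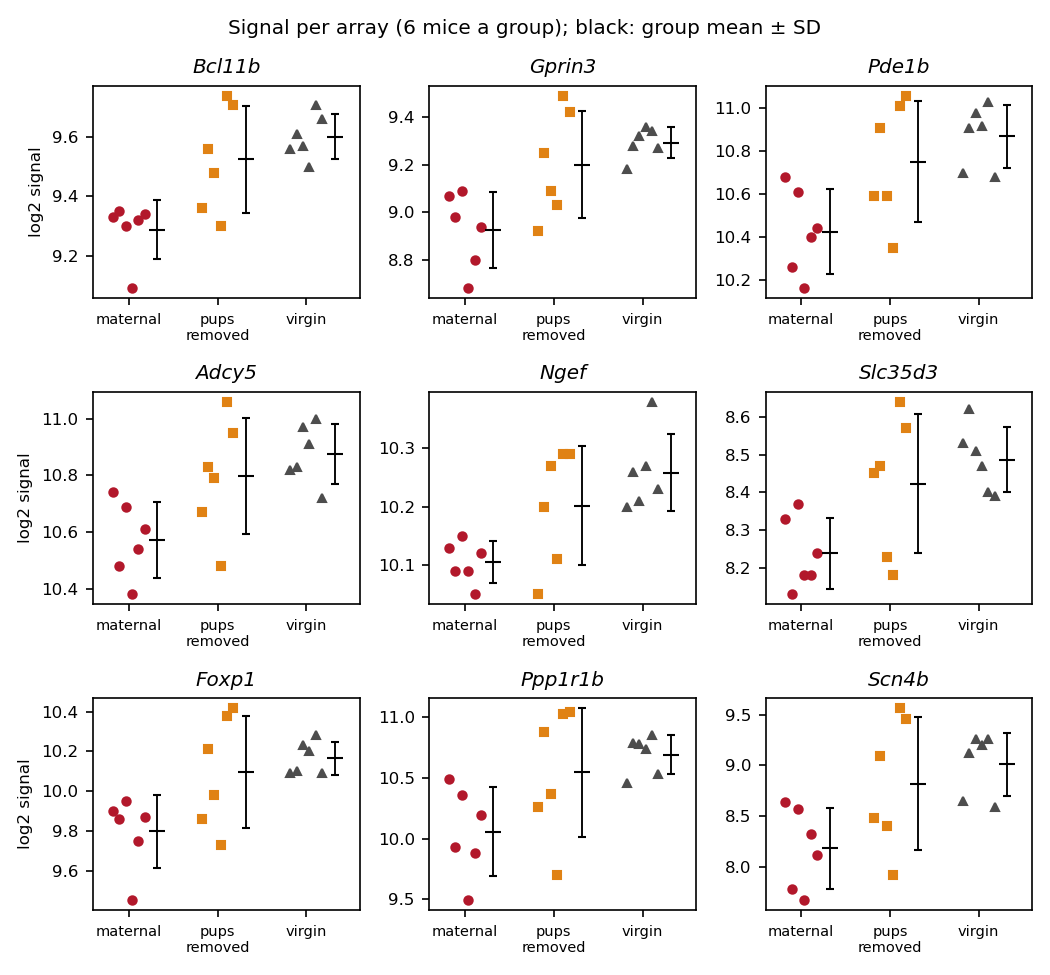
Log2 signal (y axis) of the 7 called members and of Ppp1r1b and Scn4b in each of 6 maternal, 6 pups removed and 6 virgin arrays, with the group mean ± SD in black. Maternal points of Bcl11b, Gprin3, Ngef, Slc35d3 and Foxp1 lie below all virgin points, and pups removed points span most of the range of both.

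The calls rested on single arrays, as did those over all probesets, of which 585 passed in either direction. Without maternal replicate 4, maternal replicate 5 or virgin replicate 2, 0 of the 7 members passed in limma, although Bcl11b still differed by -0.27, -0.32 and -0.31. Over all probesets 143, 10 and 76 passed in these fits. Only Bcl11b passed without maternal replicate 6 or virgin replicate 3, when 163 and 227 of all probesets passed. Bcl11b and Gprin3 alone passed without maternal replicate 2 (243 of all probesets) or virgin replicate 4 (334). Without virgin replicate 5, 3 members passed (449 of all probesets), and without pups removed replicate 2, 4 members passed (454). Slc35d3 also did not pass without virgin replicate 1 (-0.24) or pups removed replicate 1 (-0.25), nor did Foxp1 (-0.40) and Ngef (-0.16) without maternal replicate 3. In the other direction, 15 members passed without virgin replicate 6 or without pups removed replicate 4, and 13 without maternal replicate 1, when 1639, 760 and 946 of all probesets passed. The median difference of the 33 members moved less, between -0.288 and -0.226 over the 18 arrays left out in turn.

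Against pups removed mice, the members were also mostly lower in maternal LS, and 0 passed in limma. The mean was lower in maternal mice for 31 of 33 members (51.9% of all probesets), with a median difference of -0.217 (all probesets, -0.0033). No member was among the 3 probesets (0.00844%) called lower, while 16 members had an unadjusted p under 0.05 with a lower maternal mean, as did 5.63% of all probesets. The smallest p-values belonged to Ido1, Bcl11b and Gprin3. Ido1 had signals of 6.43, 6.51, 6.61, 6.33, 6.51 and 6.47 in maternal mice, against 6.66, 6.84, 6.58, 6.57, 6.87 and 6.87 in pups removed mice. Only maternal replicate 3 lay within the pups removed range. The difference of Ido1 was -0.25 (SE 0.08, limma adjusted p = 0.338). That of Bcl11b was -0.24 (limma adjusted p = 0.343) and that of Gprin3 was -0.27 (limma adjusted p = 0.399). Without pups removed replicate 4, 14 members passed, and Ido1, Bcl11b and Gprin3 differed by -0.29, -0.28 and -0.31. The number of probesets called in either direction was 719 without that array, against 11 with it.

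Between pups removed and virgin LS the members differed little on average but spread widely. The mean was lower in pups removed mice for 30 of 33 members (42.3% of all probesets), with a median difference of -0.075. No member was among the 0.0197% of probesets called lower, and 0 members had an unadjusted p under 0.05 in limma. The smallest p-values were those of Ppp1r16b (-0.08, limma adjusted p = 0.707), Tmem158 (-0.08, limma adjusted p = 0.754) and Ngef (-0.06, limma adjusted p = 0.796). The comparisons share arrays and are not independent of each other.

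The spread within a group was wider for members than for other probesets in both postpartum groups. The median SD of a member was 0.159 in maternal, 0.226 in pups removed and 0.111 in virgin mice, while that of all probesets was 0.0945, 0.1 and 0.109. The widest SD was 0.40 in maternal mice (Scn4b), 0.71 in pups removed mice (Sh3rf2) and 0.31 in virgin mice (Scn4b). The mean of the 33 members ran from 9.34 to 9.75 in maternal (9.61 ± 0.15), from 9.46 to 10.09 in pups removed (9.84 ± 0.25) and from 9.81 to 9.99 in virgin mice (9.92 ± 0.09, SD, n = 6 each). Each maternal array thus lay below each virgin array, and the pups removed arrays reached from within the maternal range to above the virgin range. Maternal replicate 4 was the lowest of its group for 26 of 33 members, and pups removed replicate 4 for 27. Pups removed replicates 5 and 6 were the highest of their group for 16 and 13 members. RNA was extracted in matched triplets by the study's methods, but the labels do not say which arrays formed a triplet.

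**Figure D3:**
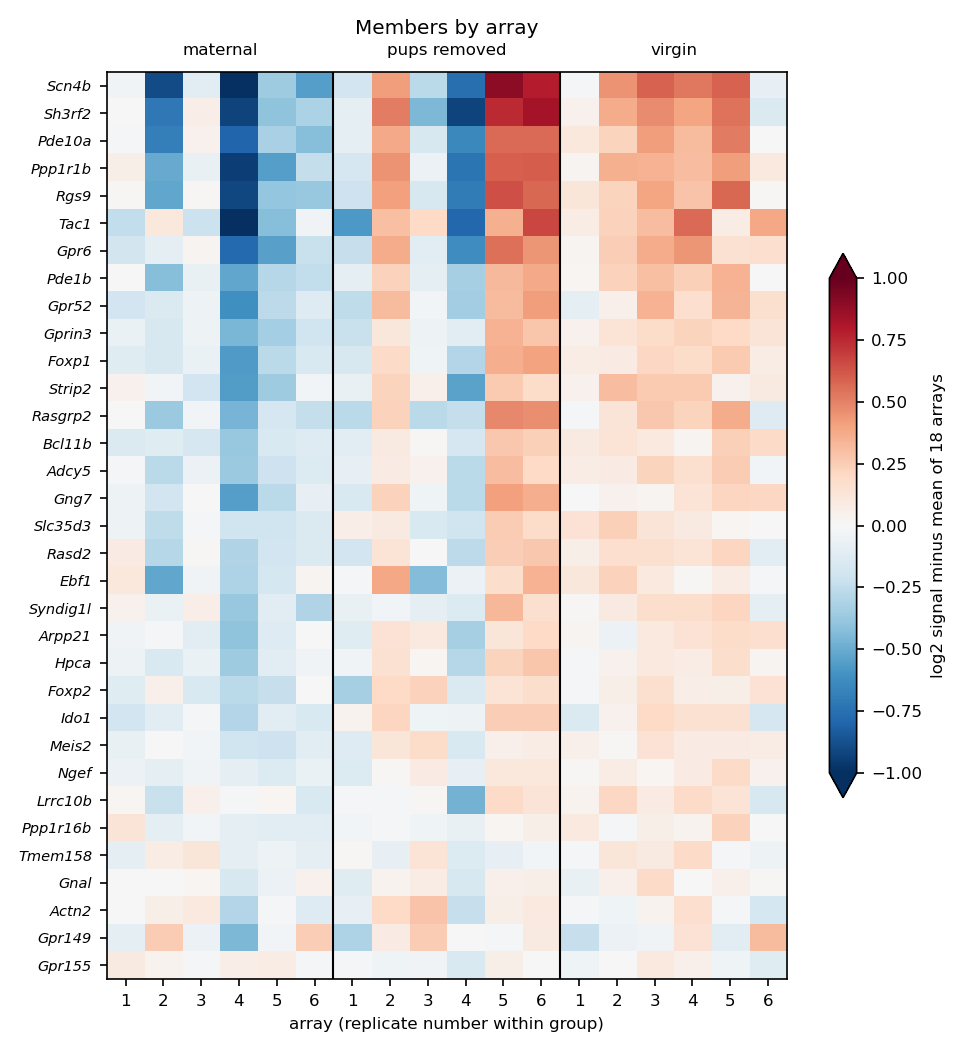
Log2 signal of each member minus its mean over the 18 arrays (color, log2 units), with members in rows and arrays in columns (maternal, pups removed and virgin, by replicate number). Maternal replicate 4 and pups removed replicate 4 are low for most members (lowest of their group for 26 and 27 of 33), and pups removed replicates 5 and 6 are high for most.

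The members moved together from mouse to mouse. Each signal was taken as its deviation from its group mean, so that differences between groups had no part. Over 18 arrays the median correlation between a pair of members was 0.653 (528 pairs, 380 above 0.5 and 11 below 0). A member's correlation with the mean of the other members had a median of 0.829 and was above 0.8 for 19 of 33, led by Ppp1r1b (r = 0.98), Rgs9 (r = 0.972) and Foxp1 (r = 0.971). Of 19905 other genes, 81 (0.407%) reached 0.8, and their median was -0.106. Tmem158 (r = 0.198), Gpr149 (r = 0.251), Gpr155 (r = 0.482) and Ppp1r16b (r = 0.495) followed the other members least. The maternal minus virgin differences of these 4 lay between -0.12 and 0.05. All genes of an array share its RNA sample, and genes are not independent replicates.

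Medium spiny neuron markers that are not members were lower in maternal mice as well. The list was chosen with earlier results of these data known. The paper itself reports lower Rarb, Rxrg, Drd1 and Drd2 in maternal than in virgin LS. The 8 markers measured were Drd1, Drd2, Penk, Rarb, Rxrg, Pdyn, Chrm4 and Ptpn5, while Adora2a was not analysed here. All 8 had a lower mean in maternal than in virgin LS, with a median of -0.30. The retinoid receptor Rarb, abundant in striatum, averaged 9.05 in maternal mice, against 9.65 in virgin mice, and fell by 0.60 (SE 0.17, limma adjusted p = 0.212). Its partner Rxrg averaged 8.55 in maternal mice, against 9.04 in virgin mice, and fell by 0.49 (SE 0.13, limma adjusted p = 0.191). The other 6 did not pass. The dopamine receptors Drd1 and Drd2 differed by -0.32 (limma adjusted p = 0.332) and -0.27 (limma adjusted p = 0.286), and Penk, the enkephalin precursor, by -0.39 (limma adjusted p = 0.323). Chrm4 differed by -0.22 (limma adjusted p = 0.282), Pdyn by -0.16 (limma adjusted p = 0.531) and Ptpn5 by -0.07 (limma adjusted p = 0.54). Against pups removed mice, 7 of the 8 were lower in maternal LS, and Ptpn5 differed by 0.05. The mean of the 8 markers was 9.82 ± 0.16 in maternal, 10.02 ± 0.24 in pups removed and 10.14 ± 0.06 in virgin mice (SD, n = 6 each).

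The mean of the members followed the mean of these 8 markers closely. Over the 18 arrays r was 0.97 for levels (Spearman correlation 0.975) and 0.955 for deviations from group means (Spearman 0.911). It was 0.915 without the farthest arrays, pups removed replicate 4 and maternal replicate 4, and 0.907, 0.982 and 0.935 within the maternal, pups removed and virgin groups. The mean of 10 lateral septal markers differed little between groups (10.26 ± 0.05 in maternal, 10.22 ± 0.11 in pups removed and 10.25 ± 0.06 in virgin mice, SD, n = 6 each). Of the 10, 0 passed in limma for maternal versus virgin LS, with a median of 0.05, and single genes lay on both sides. Trpc4 differed by 0.17 (limma unadjusted p = 0.018, adjusted p = 0.367) and Zic4 by 0.14 (limma unadjusted p = 0.0065, adjusted p = 0.282), while Glp1r was at -0.19 against virgin mice and -0.31 against pups removed mice (limma unadjusted p = 0.00973, adjusted p = 0.426, in the second). These 3 genes were picked with their values in view. The mean of the 10 had r = -0.44 with that of the members over deviations (-0.365 without pups removed replicates 3 and 6), and within groups r was -0.332 in maternal, -0.626 in pups removed and 0.357 in virgin mice. This mean was lowest in pups removed replicates 6 and 5 (10.09 and 10.13), the arrays with the highest member means (10.09 and 10.08). Virgin replicate 6 came next (10.14), with a member mean of 9.82. The septal mean was highest in pups removed replicate 3 (10.41, member mean 9.76) and maternal replicate 4 (10.34, member mean 9.34). In pups removed replicate 4 it was 10.26, with a member mean of 9.46.

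Other lists moved with the members to a lesser degree. Over deviations, r with the member mean was 0.877 for the 28 genes of the dopamine to cAMP pathway outside the members, which include Drd1, Drd2 and Ptpn5. It was 0.807 for 10 genes of subventricular stem cells and neuroblasts, 0.611 for 8 choroid plexus genes and 0.596 for 6 ependymal genes. Within the maternal, pups removed and virgin groups, r was 0.908, 0.915 and 0.798 for the pathway list. It was 0.7, 0.869 and 0.952 for the stem cell list and 0.173, 0.751 and 0.949 for the ependymal list. In virgin mice the stem cell and ependymal values were above the 0.935 of the 8 outside markers. Over deviations, r was -0.559 for the medial septal list (-0.241 without pups removed replicates 4 and 2). Within the maternal, pups removed and virgin groups it was -0.389, -0.609 and -0.622 for that list. Over deviations, r was -0.0724 for the striatal interneuron list. It was between -0.121 and 0.375 for cortical, oligodendrocyte, astrocyte, microglial and endothelial lists. In maternal relative to virgin LS, 9 of the 10 stem cell and neuroblast genes were lower, of which 4 passed (Egfr, Nr2e1, Nes and Top2a). Egfr and Nr2e1 each had a limma adjusted p of 0.111, smaller than that of any member. Array means of the list ran from 8.50 to 8.70 in maternal and from 8.70 to 8.85 in virgin mice. Of 6 microglial genes 5 were lower, and 2 passed, the purinergic receptor P2ry12 (-0.18, limma adjusted p = 0.114, a smaller value than that of any member) and Aif1 (-0.14, limma adjusted p = 0.179). Of 6 endothelial genes 4 were higher, and 1 passed, the growth factor receptor Flt1 (0.15, limma adjusted p = 0.19). All 8 choroid plexus genes and all 6 ependymal genes were lower, by medians of -0.51 and -0.31, with 0 called in limma. Choroid plexus array means overlapped widely, from 7.62 to 9.30 in maternal and from 7.69 to 9.75 in virgin mice. The part of these cells and tissues in the members' differences was not tested.

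**Figure D4:**
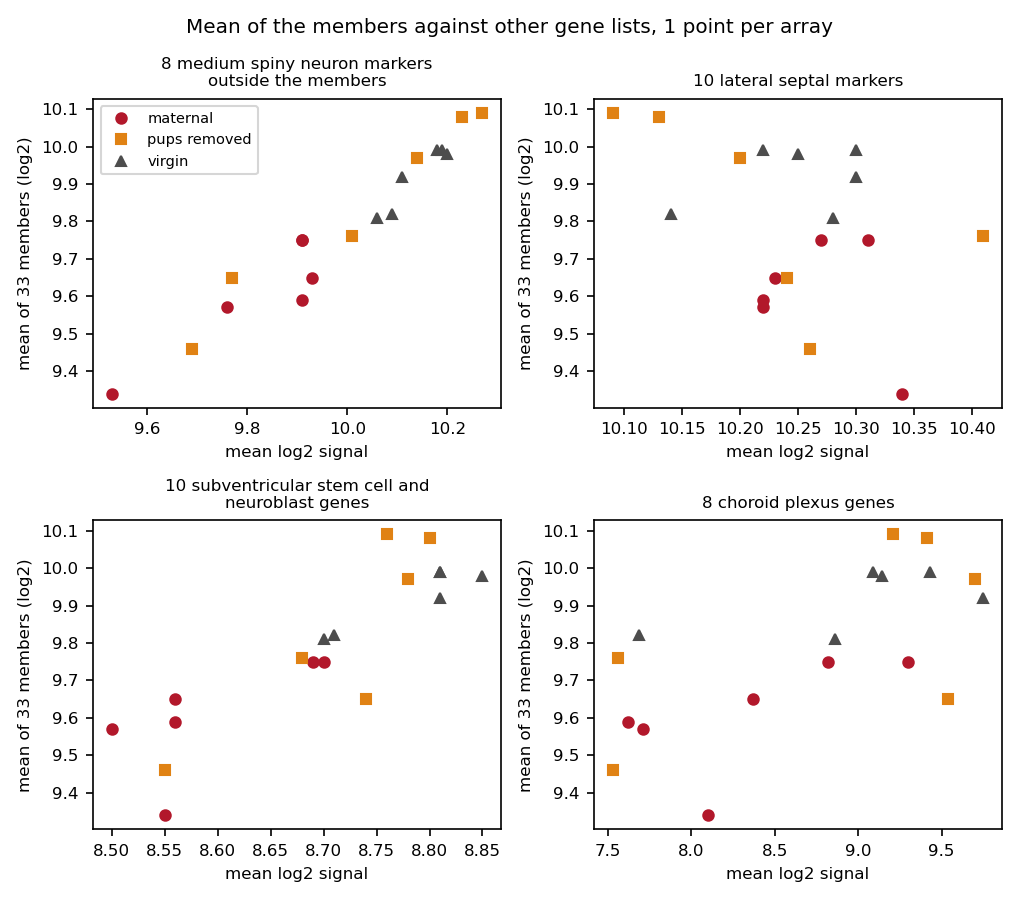
Mean log2 signal of the 33 members (y axis) against the mean log2 signal of 4 other gene lists (x axes), 1 point per array, for maternal (circles), pups removed (squares) and virgin (triangles) mice. Points lie close to a line for the 8 outside medium spiny neuron markers (r = 0.97) and do not for the 10 lateral septal markers (r = -0.42).

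Members that tracked the outside markers steeply were those with the larger group differences. The slope of a member's deviation on that of the 8 markers was above 1 for 13 members, among them Sh3rf2 (2.37), Tac1 (2.27), Scn4b (2.26), Ppp1r1b (2.06) and Rgs9 (1.99). It was 0.12 for Tmem158, 0.14 for Gpr155 and 0.19 for Ppp1r16b. Across the 33 members, the slope and the maternal minus virgin difference had r = -0.933 (Spearman -0.905). The slope was taken from deviations within groups and the difference from group means. Both can be larger in size for a gene whose signal varies more, and the source of the correlation was not tested. This correlation is across genes of the same arrays.

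With the mean of the 8 outside markers as a covariate in limma, the difference of the members between maternal and virgin LS was near 0. The median was 0.00968 (-0.248 without the covariate), 16 members were lower and 17 higher, and the range was -0.12 to 0.17. In limma 0 members passed, and 1 had an unadjusted p under 0.05, namely Bcl11b at -0.11 (SE 0.05, limma unadjusted p = 0.0466). Pde1b and Slc35d3 also stood at -0.11, Gprin3 at -0.09, and Adcy5 and Ngef at -0.06. Foxp1 was at -0.01 and Ppp1r1b at 0.01. Over all probesets 0 passed with this covariate, with 2078 at an unadjusted p under 0.05. Against pups removed mice the median of the members was -0.0374 with the covariate and -0.217 without it. The covariate was itself lower in maternal mice, so it takes up any difference between groups that it shares with the members, whatever the source. With lateral septal markers as the covariate, the median stayed at -0.239 and 10 members passed, with 828 of all probesets (585 without a covariate). The mean of these septal markers was 10.26 in maternal and 10.25 in virgin mice. As a covariate it could therefore take up little of a difference between these groups, whatever the source. An amount of striatal tissue in the punch or a change of expression in medium spiny neurons would move the members and the markers. So would a change in other neurons of the LS that express these genes. These cannot be told apart here.

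**Figure D5:**
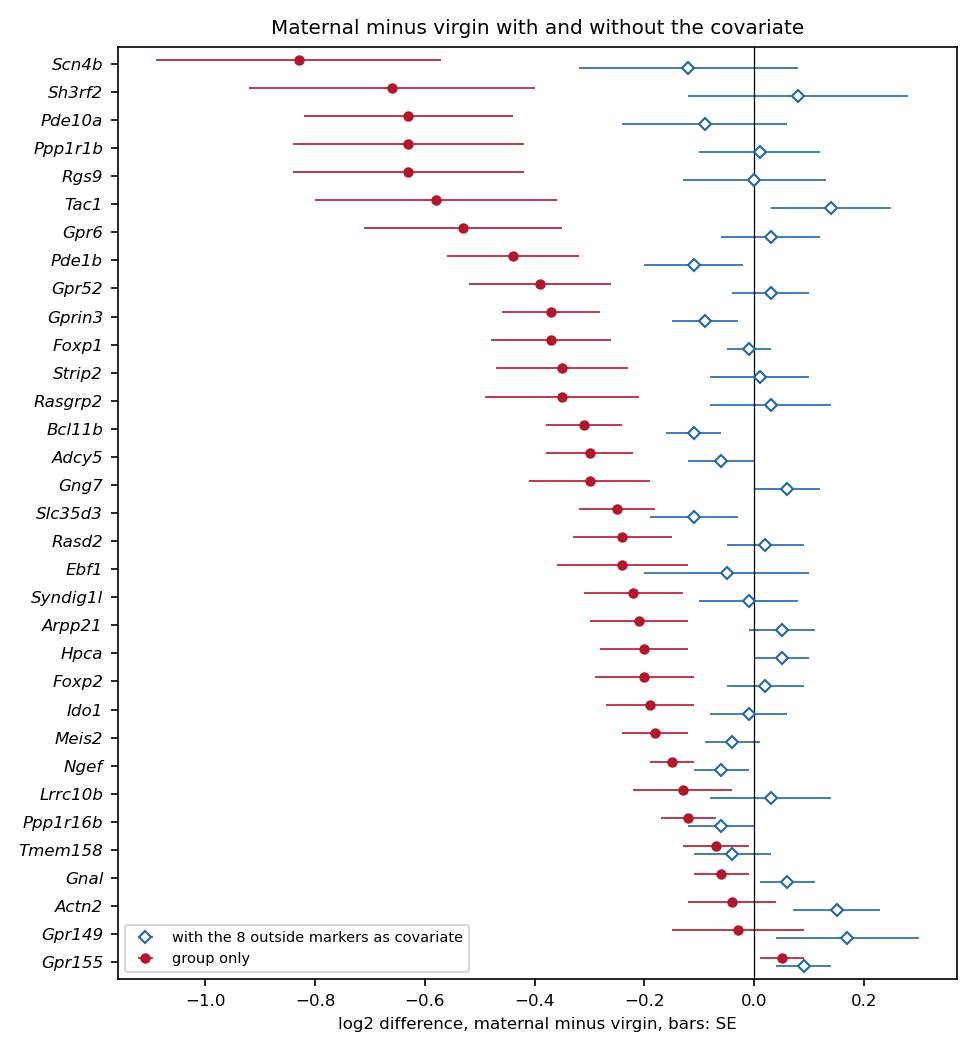
Maternal minus virgin log2 difference of each member (x axis; bars, SE) from the fit with group only (filled circles) and from the fit with the mean of the 8 outside medium spiny neuron markers as covariate (open diamonds). The medians are -0.248 and 0.00968.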

How the data were processed

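RNA of the LS of 18 mice was measured on 18 arrays. The authors deposited log2 signals of 35557 probesets, summarized with PLIER and a background correction by GC bin in Affymetrix Power Tools 1.12.0. The values have 2 decimals and were used as deposited. The study's methods place normalization in this same PLIER step, and a method of normalization between arrays is not named. Each gene was read from the brightest of the probesets annotated to it and to no other gene. The 18 arrays entered 1 model with 3 groups (limma 3.58.1, R 4.3.3), with Benjamini-Hochberg adjustment over all probesets and the study's threshold of 0.25. The code of the fit was checked on deviations of the real arrays, reassigned at random once, with known differences added to some probesets. SE is that of the limma difference, and SD is between arrays. Arrays have no read depth, and their number limits the precision. Named were all members, the called members of the other lists (up to 4 each), the 3 smallest p-values where no member was called, and the 10 genes most like the members. All 8 outside medium spiny neuron markers were named as well, and Trpc4, Zic4 and Glp1r were added after their values were seen. Members and lists were chosen with earlier results of these data known. Motifs and correlations were computed in Python 3.11.15. Same-numbered arrays were checked for shared deviations (18 pairs, 0 with r over 0.1), so numbers were not used to pair mice. Alternatives were quantile normalization, median centring, a signal filter, limma trend, a replicate block, covariates, other thresholds and arrays left out in turn.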

Additional observations from a re-analysis of the deposited data

Results flagged for a closer look

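Of 141 groups of 6 values looked at (99 of single members and 42 of list means), 4 held an array set apart from the other 5 by a wide gap. If the groups were independent, chance alone would set apart about 1 in 20, and the 4 do not exceed that share. The groups share the same 18 arrays and are not independent, so how often chance gives such gaps here was not tested. Maternal replicate 4 and pups removed replicate 4, named below, were the lowest of their group for 26 and 27 of 33 members. Bcl11b in maternal replicate 4 was at 9.09, with the other maternal mice between 9.30 and 9.35. Arpp21 in the same array was at 10.54, with the others between 10.81 and 10.94. Lrrc10b in pups removed replicate 4 was at 8.38, with the others between 8.83 and 9.04. Ppp1r16b in maternal replicate 1 was at 10, above the others between 9.76 and 9.84.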

How the results depend on the processing

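For maternal versus virgin LS, 7 members passed (585 of all probesets), and the count was 8 with quantile normalization (682) and 7 with median centring (549). With the mean of all probesets of a gene it was 7 (493), but each of the 33 members had 1 probeset. That setting therefore left the members' own values as they were. The count was 19 with probesets above the median signal only (1309), where Ido1 was not tested. It was 12 with limma's trend (859) and 15 with only the arrays of both groups compared (422). It was 0 at an adjusted p under 0.05 or under 0.1, and 0 with the outside medium spiny neuron markers as covariate, which gave medians of 0.00968 (maternal versus virgin) and -0.0374 (maternal versus pups removed). With the replicate number as a block, 2 members passed as a fixed block (356 of all probesets) and 3 as a random block (332). Same-numbered arrays did not deviate together (r from -0.248 to 0.0953). With 1 array left out the count ran from 0 to 15. For maternal versus pups removed it was 0, with 1 for probesets above the median signal and a range of 0 to 14 with 1 array left out. For pups removed versus virgin LS it was 0 under each alternative run. With the marker covariate the direction turned for Ppp1r1b (0.01), Tac1 (0.14), Gpr6 (0.03), Gpr52 (0.03), Gpr149 (0.17), Gng7 (0.06), Gnal (0.06), Rasd2 (0.02), Rasgrp2 (0.03), Foxp2 (0.02), Actn2 (0.15), Sh3rf2 (0.08), Arpp21 (0.05), Strip2 (0.01), Lrrc10b (0.03) and Hpca (0.05). With 1 array left out, Gpr149 ran from -0.08 to 0.06 and Actn2 from -0.07 to 0.01. The causes were not tested. The number of arrays limits what can be called.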

Other observations

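Outside the members and the fixed lists, the 10 genes whose deviations most resembled the mean of the members over 18 arrays had r between 0.911 and 0.973. Serpina9, a serine protease inhibitor, led with r = 0.973 and averaged 7.38 ± 0.42 in maternal, 7.92 ± 0.52 in pups removed and 8.14 ± 0.19 in virgin mice (log2 signal, SD, n = 6 each). Gabrd, the delta subunit of GABA-A receptors outside synapses, had r = 0.969 and averaged 8.35 ± 0.15 in maternal, 8.56 ± 0.28 in pups removed and 8.72 ± 0.08 in virgin mice. Gabra4, the alpha4 subunit that pairs with delta, had r = 0.946 and averaged 10.32 ± 0.11 in maternal, 10.39 ± 0.14 in pups removed and 10.50 ± 0.08 in virgin mice. Lzts3 (r = 0.961), Arpp19 (r = 0.93), Plk2, Kcna4 and Atf6 (r = 0.917 each), and Asic4 and Foxo1 (r = 0.911 each) followed. The genes were picked for this likeness, which is given as a description.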
